A study of Mus musculus with 2 samples.

Results

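The 10 glycolysis genes described here are Slc2a1, Hk2, Aldoa, Tpi1, Gapdh, Pgk1, Pgam1, Eno1, Pkm and Ldha. They were taken by symbol from the 28692 genes of the deposited matrices, and each of the 10 symbols belonged to exactly 1 gene ID. Their transcripts were counted in CD45+ immune cells that reside in adipose tissue, taken from adult C57BL/6 mice of wild-type genotype. The control mice received chow and the other mice a ketogenic diet, which is rich in fat and poor in carbohydrate, for 1 week. Cells that an intravenous label had reached in the circulation were set apart, so that the cells studied were those of the tissue. Each diet is represented by 1 single-cell library, and the number of mice behind each, their sex and their exact age are not given in the sources used here. With 1 library a diet, no difference below has a replicate check, no test between diets was possible, and the diet cannot be told apart from anything else that differed between the libraries.

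Glycolysis splits glucose into pyruvate in the cytosol and yields ATP without oxygen. Glucose enters through carriers such as Slc2a1 (GLUT1), hexokinases such as Hk2 trap it as glucose 6-phosphate, and aldolase and triose phosphate isomerase cut the sugar into interchangeable trioses. The lower steps, from Gapdh to Pkm, recover ATP and NADH, and lactate dehydrogenase A (Ldha) turns pyruvate into lactate and so restores NAD+. Immune cells raise these genes on activation, largely through MYC and hypoxia-inducible factor 1 (HIF-1), and inflammatory macrophages and effector T cells are known for high lactate output. Ketogenic feeding removes most dietary carbohydrate and raises the supply of fatty acids and ketone bodies.

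Transcripts were counted as UMIs (unique molecular identifiers), so that copies of 1 molecule count once. They were summed over the cells of each of the 13 clusters (0 to 12) in the authors' deposited table, and are given as CPM, that is, scaled to the total UMIs of the same cells. The chow library held 4545 cells with a median of 3469 UMIs and the ketogenic library 5614 cells with a median of 3461.5, of which 4458 and 5559 were in a cluster. Over the clustered cells the 10 genes gave 46178 UMIs under chow, or 0.216% of all UMIs, and 72262 UMIs, or 0.279%, in the ketogenic library. The libraries shared 41 cell barcodes. The share of mitochondrial UMIs in clustered cells was 1.97% and 1.83%. Xist, transcribed from the inactive X chromosome of female cells, gave 2 and 1 UMIs, and the Y-linked genes Ddx3y 89.3 and 89.7 CPM and Eif2s3y 58.3 and 72.2 CPM. By their raised markers the clusters were called ILC2-like (0; group 2 innate lymphoid cells), NK-like (1; natural killer cells), T-like (2), macrophage-like (3), cDC2-like and cDC1-like (5 and 6; conventional dendritic cells), Treg-like (7; regulatory T cells), B and plasma-like (9), cycling-like (10), γδ T-like (11) and mature DC-like (12; dendritic cells). Clusters 4 and 8 were left unnamed. Cluster 4 was led by Ly49 receptor and CD3 genes, and cluster 8 by Retnla, Fcrls and Lyz1, with 4 of 7 cDC2 and 3 of 7 monocyte markers raised but none of these cDC2 markers among its leading genes. Square brackets give 95% intervals (exact Poisson for levels, exact conditional for ratios), and they cover counting error only.

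The promoters of 4 of the genes are shown because they belong to genes whose diet ratios went in different directions, Ldha and Slc2a1 higher and Pgk1 and Hk2 not, and because all 4 carry the same short motif. Each is the 250 bases before a transcription start, 5′ to 3′ on the gene's own strand, from RefSeq on GRCm38.p6. The capitals mark ACGTG, a form of the core of the hypoxia response element that HIF-1 binds, or CACGT, the same letters on the opposite strand. No other form of the core was searched, so a window without a match may still hold another form. Where the strands overlap they form the E-box CACGTG, which MYC also binds.
Ldha: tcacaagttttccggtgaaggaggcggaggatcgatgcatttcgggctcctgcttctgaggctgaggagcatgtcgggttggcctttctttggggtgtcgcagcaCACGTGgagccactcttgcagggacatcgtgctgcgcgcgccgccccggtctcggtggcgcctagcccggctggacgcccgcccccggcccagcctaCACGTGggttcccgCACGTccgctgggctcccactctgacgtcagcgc
Slc2a1: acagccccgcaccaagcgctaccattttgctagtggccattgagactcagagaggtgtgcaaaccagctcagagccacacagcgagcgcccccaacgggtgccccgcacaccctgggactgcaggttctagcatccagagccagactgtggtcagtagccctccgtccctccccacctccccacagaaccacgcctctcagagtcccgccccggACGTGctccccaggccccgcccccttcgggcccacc
Pgk1: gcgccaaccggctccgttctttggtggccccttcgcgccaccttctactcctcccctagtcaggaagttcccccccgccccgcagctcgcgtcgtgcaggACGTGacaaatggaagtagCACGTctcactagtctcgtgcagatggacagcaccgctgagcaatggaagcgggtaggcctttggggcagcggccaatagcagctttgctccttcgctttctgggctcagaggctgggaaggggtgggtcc
Hk2: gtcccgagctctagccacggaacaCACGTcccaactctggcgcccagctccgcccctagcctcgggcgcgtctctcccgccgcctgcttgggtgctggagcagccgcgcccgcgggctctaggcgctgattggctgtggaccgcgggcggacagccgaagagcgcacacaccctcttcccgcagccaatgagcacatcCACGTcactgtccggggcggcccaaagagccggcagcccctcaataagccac
The Ldha window lies at chr7:46845554-46845803 on the plus strand, that of Slc2a1 at chr4:119108495-119108744 on the plus strand, that of Pgk1 at chrX:106186850-106187099 on the plus strand and that of Hk2 at chr6:82774455-82774704 on the minus strand. Both strands counted, the motif occurred 5 times in 3 stretches of the Ldha window, 1 time in that of Slc2a1 and 2 times each in those of Pgk1 and Hk2. Among the windows nearest the main annotated start of each of the 10 genes, 5 held it, the fifth being that of Pgam1. Of 27025 genes with a window, 4477 (16.6%) held it in the first window listed. The windows of a single chromosome, which holds none of the members, were left out of this count. The nearest windows of Gapdh, Eno1, Pkm and Tpi1 lay 694, 244, 208 and 138 bases from that start. Those of Pgam1, Ldha and Slc2a1 lay 52, 35 and 34 bases from it. For all these genes the letters searched were thus not exactly those directly before it. With every listed window of a gene counted, 7 of the 10 genes and 18.5% of the same 27025 genes held the motif. Tpi1, Gapdh and Eno1 did not. A match is a description of these letters and not a measured binding site.

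By the mean of the libraries, glycolysis transcripts were most abundant in the γδ T-like cluster and the ILC2-like cluster and least abundant in the mature DC-like and the B and plasma-like clusters. In the chow library alone, cluster 8 came first, within counting error of the γδ T-like cluster. In the γδ T-like cells the 10 genes summed to 2855 CPM [2619–3105] in the chow library and 3848 CPM [3702–3998] in the ketogenic library. In the ILC2-like cells the sums were 2392 CPM [2330–2455] and 3549 CPM [3494–3606]. These innate-type lymphocytes stood above the NK-like cells, at 1897 and 2724 CPM, and above the T-like cells, at 2070 and 2903 CPM, in both libraries. The myeloid clusters split. Cluster 8 reached 2875 and 3053 CPM and the macrophage-like cells 2502 and 3170 CPM, whereas the cDC2-like cells had 1775 and 2293 CPM, the cDC1-like cells 1577 and 2181 CPM and the mature DC-like cells 1112 CPM [1009–1222] and 1506 CPM [1379–1641]. The B and plasma-like cells had 772 CPM [709–840] and 1792 CPM [1730–1856]. The remaining clusters lay between, with 2152 and 3408 CPM in cycling-like, 2188 and 3219 CPM in Treg-like cells and 1825 and 2624 CPM in cluster 4. CPM is scaled to all UMIs, and in the B and plasma-like cluster 5 plasma cell markers alone took 46376 and 25162 CPM. Its cells with under 10% immunoglobulin UMIs had 1369 and 2570 CPM of the glycolysis genes, the others 587 and 884 CPM. With immunoglobulin genes left out of the total, the mature DC-like cluster was the lowest. Averaged over the libraries, the highest cluster was 2.61 times the lowest, and the order of the 13 clusters was alike in both libraries (Spearman's rho 0.87, a description over clusters of the same 2 libraries).

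Not all neighbours in that order were apart. In both libraries the γδ T-like cluster stood above the ILC2-like cluster, the cDC2-like above the cDC1-like and the cDC1-like above the mature DC-like cluster beyond the counting intervals. The NK-like cluster and cluster 4, next to each other, overlapped in both libraries. In each other neighbouring pair the higher-placed cluster stood above the next in 1 library and not in the other. In some of these pairs the order was reversed beyond the intervals in that other library. Under chow, cluster 8 stood above the ILC2-like cluster. Under the ketogenic diet, the cycling-like stood above the macrophage-like and the B and plasma-like above the mature DC-like cluster. The means of the ILC2-like cluster and cluster 8 were nearly equal, at 2971 and 2964 CPM. Cluster 8 was the highest of all under chow but only the sixth under the ketogenic diet, where it held 47 cells against 362 under chow. Its chow interval [2813–2937] overlapped that of the γδ T-like cluster [2619–3105].

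**Figure D1:**
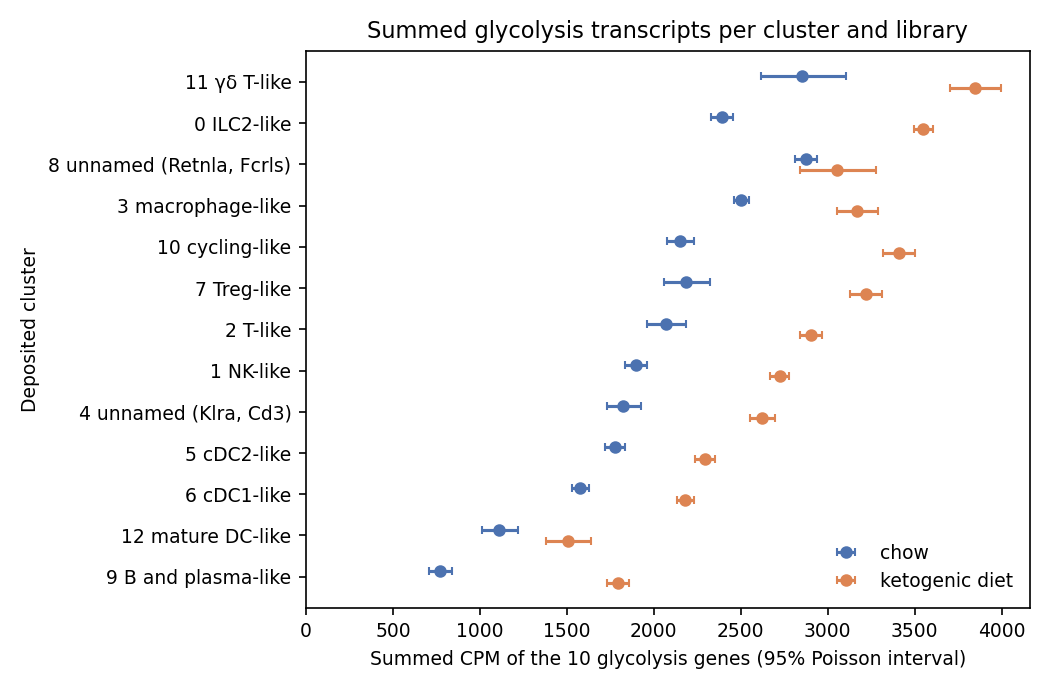
Summed CPM of the 10 glycolysis genes (x axis) in each deposited cluster (y axis, ordered by the mean of both libraries), with chow in blue and the ketogenic diet in orange; bars are 95% Poisson intervals of the UMIs. The orange point lies to the right of the blue point in 13 of 13 clusters, and only in cluster 8 do the intervals meet.

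The genes did not share 1 profile over the clusters; the clusters named here as highest or lowest are so by the mean of the libraries. Ldha and Aldoa were highest in the ILC2-like cells: Ldha stood there at 800.5 CPM [765–837] in the chow library and 1130 CPM [1099–1162] in the ketogenic library, and Aldoa at 468 and 766 CPM, where the γδ T-like cells had 495 CPM of Aldoa in the chow library and 702 CPM in the ketogenic library. In the mature DC-like cells Ldha had only 116 CPM [84.3–155] and 191 CPM [148–243]. The cells rich in Ldha were thus lymphocytes, with the γδ T-like and Treg-like clusters next. Eno1, which makes phosphoenolpyruvate, and Pkm, which makes pyruvate from it, were instead highest in the macrophage-like cells by that mean. Eno1 stood there at 499 CPM [480.1–519] and 551 CPM [503–602], and at 99.6 CPM [87.5–113] and 163 CPM [150.2–177] in the cDC1-like cells. Pkm had 345 and 642 CPM in the macrophage-like cells and 369 and 610 CPM in the γδ T-like cells, which were thus higher in the chow library, and Eno1 in the γδ T-like cells reached 411 and 551 CPM. Gapdh and Pgk1 were highest in the cycling-like cells, with 743 and 1190 CPM of Gapdh (797 and 790 CPM in cluster 8) and 101 and 111 CPM of Pgk1. Tpi1 and Pgam1 were highest in cluster 8, at 143 and 191 CPM and at 188 and 155 CPM, with 167 and 162 CPM of Pgam1 in the cycling-like cells.

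Hk2 varied most between clusters, by 28.6-fold from the highest to the lowest mean, against 2.37-fold to 6.30-fold for the other 9 genes. Hk2, the inducible hexokinase, stood at 83.5 CPM [73.3–94.6] in the chow library and 131 CPM [90.2–184] in the ketogenic library in cluster 8, at 100.1 CPM [60.2–156] and 103 CPM [79.98–130] in the γδ T-like cells and at 63.0 and 51.03 CPM in the cDC2-like cells. In the NK-like cells it had 3.89 CPM from 7 UMIs and 3.62 CPM from 13 UMIs. The γδ T-like cluster was thus the lymphoid cluster with the most Hk2 in both libraries, while the NK-like cells had almost none. Slc2a1, a glucose carrier, had its highest mean in the NK-like cells, at 20.02 CPM [14.0–27.7] and 33.1 CPM [27.4–39.6], next to cluster 4 at 15.9 and 34.0 CPM. Its lowest mean was in the mature DC-like cells, with 0 and 3 UMIs. In the γδ T-like cells of the chow library it had 0 UMIs, with an interval up to 19.4 CPM (3 counts would be 15.8 CPM), against 15 UMIs or 22.0 CPM [12.3–36.3] in the ketogenic library.

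**Figure D2:**
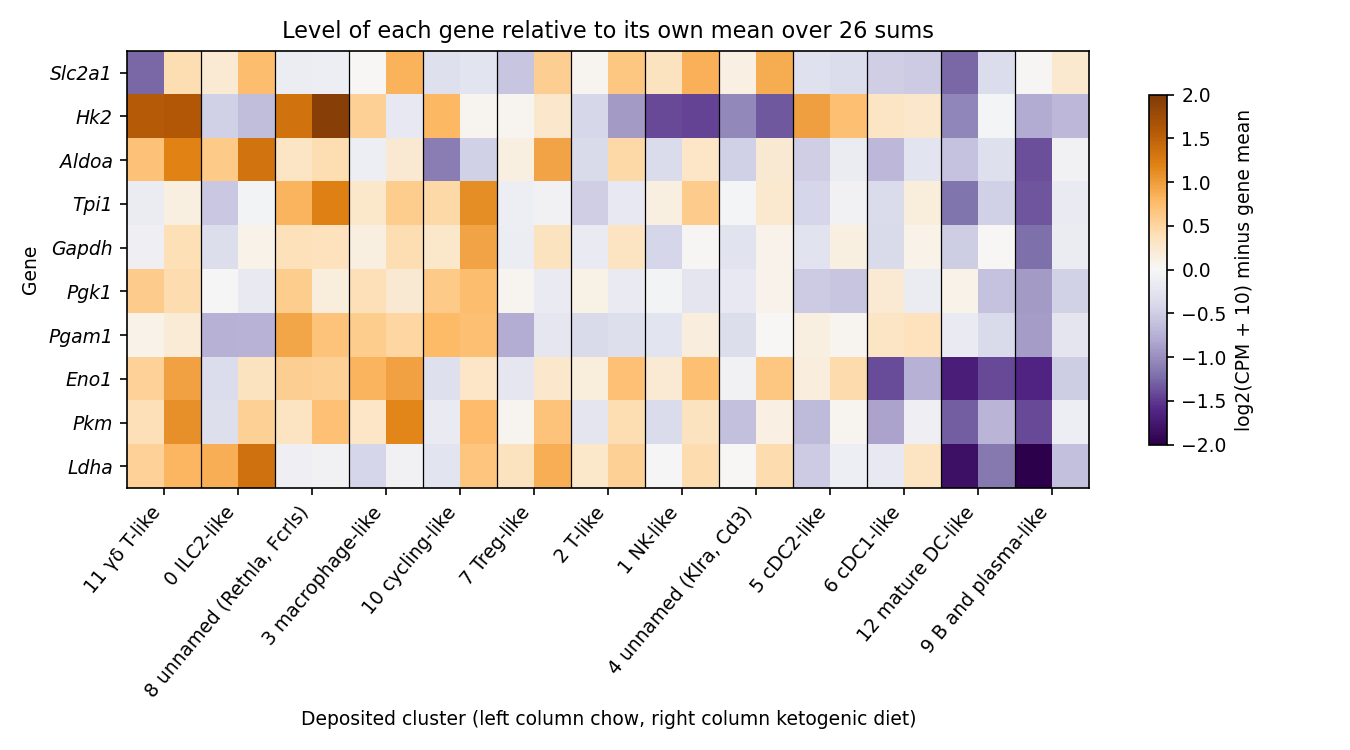
Level of each of the 10 genes (rows) in each cluster and library (columns; left chow, right ketogenic diet), as log2(CPM + 10) minus the gene's mean over the 26 sums, with orange above and purple below that mean. Hk2 is far above its mean in cluster 8 and the γδ T-like cells, Ldha and Aldoa in the ILC2-like cells, and most genes are below theirs in the 2 clusters at the right.

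Across the 26 sums of cluster and library, Pkm tracked the mean of the other 9 genes most closely (Pearson's r 0.93 on log2(CPM + 10)), followed by Gapdh at 0.83 and Eno1 at 0.80. Hk2 (0.31) and Slc2a1 (0.24) tracked it least. The 26 points come from 2 libraries and share their depth and cell makeup, so these are descriptions. Among 4483 other genes with at least 1000 UMIs, those most like the members' mean were Rab5c (0.94), Eif5a (0.89), Cops5 (0.89), Mdh2 (0.89) and Atp5b (0.88), where the median gene reached 0.33.

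The comparison the study was built on is that of the diets. Within clusters, the 10 genes together were higher in the ketogenic library. The ratio of the summed CPM was above 1 beyond counting error in 12 of 13 clusters, and with each cluster weighted alike in both libraries the sum stood at 2093 CPM in the chow library and 2933 CPM in the ketogenic library, 1.40-fold (log2 0.49, counting SE 0.011). It was 1.48-fold [1.44–1.53] in ILC2-like, 1.47-fold [1.38–1.57] in Treg-like, 1.44-fold [1.38–1.49] in NK-like, 1.44-fold [1.35–1.53] in cluster 4 and 1.40-fold [1.32–1.49] in T-like cells. The macrophage-like and cDC2-like cells were lower in that range, with 1.27-fold [1.22–1.32] and 1.29-fold [1.24–1.34], and the cDC1-like cells had 1.38-fold [1.33–1.44]. The γδ T-like and mature DC-like clusters, with the fewest UMIs, both had 1.35-fold, with intervals of [1.23–1.48] and [1.19–1.54]. The exception was cluster 8, at 1.06-fold [0.985–1.14].

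The ratios of all genes were set against the length of their transcripts. In 9 of the 13 clusters genes with shorter transcripts had, across genes, higher ketogenic to chow ratios (Spearman's rho of ratio and length between −0.21 and −0.07, a description, since genes are not replicates), while in the other 4 rho was between 0.02 and 0.26. When each gene was set against the median of genes in its own bin of transcript length, with 10 bins of equal size, a choice made after seeing the data, the overall log2 ratio of the 10 genes was 0.30 in place of 0.49. Against genes of like GC content it was 0.38, and against the median of all genes, with no bins, 0.42. Both stayed above 0, and the part that such properties play in the difference was not tested further.

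The B and plasma-like and the cycling-like clusters each hold cells of different kinds in different proportions, so their ratios were also taken within parts. No other cluster was split, although others may be mixed too. The macrophage-like cluster also had 6 of 7 monocyte and 3 of 5 neutrophil markers raised. Its summed neutrophil markers were 301 CPM in the chow library and 58.2 CPM in the ketogenic library. In the T-like cluster both Cd4 and Cd8a were raised. The part of such mixtures in the ratios of these clusters was not tested. In the B and plasma-like cluster the whole gave 2.32-fold [2.12–2.55], but the median of all its genes was itself raised by 0.50 on the log2 scale. Cells with under 10% immunoglobulin UMIs (47 chow and 197 ketogenic cells) gave 1.88-fold [1.64–2.16], from 1369 to 2570 CPM. The antibody-rich cells (35 and 48) gave 1.51-fold [1.32–1.72], from 587 to 884 CPM. In the cycling-like cluster the whole gave 1.58-fold [1.51–1.66], the cells poor in MHC class II transcripts (40 and 93) 1.60-fold [1.47–1.75] and the MHC class II-rich cells (102 and 61) 1.32-fold [1.24–1.40]. Within the MHC class II-rich cells Ldha, Gapdh, Pkm and Tpi1 were higher beyond counting error (Ldha 1.60-fold [1.39–1.85]), but Aldoa (0.915-fold [0.692–1.20]) and Eno1 (1.14-fold [0.943–1.38]) were not, although they were 1.61-fold and 1.54-fold in the whole cluster. The sum of the 10 genes was thus higher in the ketogenic library in all 4 parts, by less than the whole cluster in 3 of them. The median log2 ratio of the 10 genes was 0.10 in the MHC class II-rich cells, with 6 genes above 0. It was 0.69 in the cells poor in these transcripts and 0.65 in the whole cycling-like cluster. In the antibody-poor and antibody-rich cells it was 0.86 and 0.43.

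The share of the 10 genes was also taken cell by cell. In the median ILC2-like cell the 10 genes made up 0.221% of UMIs in the chow library and 0.336% in the ketogenic library; 1111 of 1310 ketogenic cells (84.8%) lay above the chow median, a description of these libraries, since cells of 1 library are not replicates. In the NK-like cells the medians were 0.177% and 0.261%, and in the γδ T-like cells 0.267% and 0.367%, with 77.6% of ketogenic γδ T-like cells above the chow median. The median, the lower quartile and the 10th and 90th percentiles were higher in the ketogenic library in 13 of 13 clusters and the upper quartile in 12. In 9 clusters the median ketogenic cell lay above the upper quartile of the chow cells. Cluster 8 had 63.8% of its 47 ketogenic cells above the chow median. In the B and plasma-like cells the ratio was smaller without large cells, and also with each cell counted alike. The log2 ratio of the summed genes was 1.21 over all UMIs. It was 0.90 without cells above 15000 UMIs, a choice made after seeing the data, and 0.82 as a mean over cells. In this cluster 1 cell held 103 UMIs of Gapdh, 8.87% of those in the cluster.

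**Figure D3:**
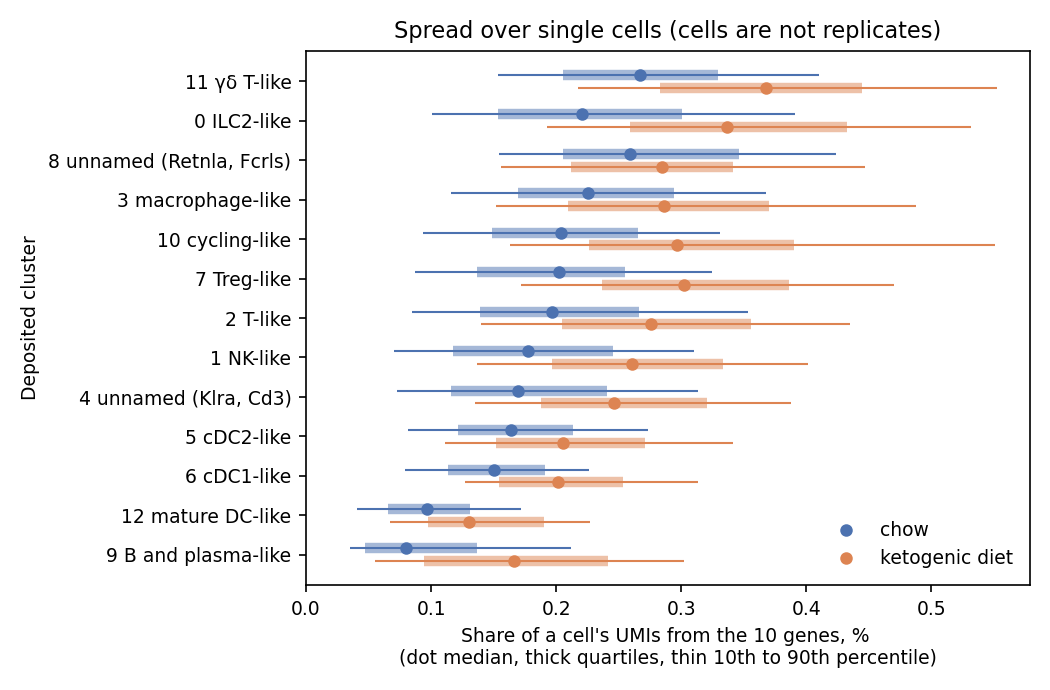
Share of each cell's UMIs that came from the 10 genes (x axis, %) per cluster and library, with the median as a dot, the quartiles as a thick bar and the 10th to 90th percentile as a thin bar. The whole distribution is displaced to the right under the ketogenic diet (orange) in most clusters, and least in cluster 8; cells are not replicates of a diet.

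Taken gene by gene, 7 of the 10 genes had intervals above 1 in most clusters where they held 100 UMIs, from 7 of 11 clusters for Tpi1 to 13 of 13 for Pkm, while Hk2, Pgk1 and Pgam1 did not. Past 1.5-fold the same genes ranged from 2 of 13 clusters for Gapdh to 12 of 13 for Pkm and 3 of 3 for Slc2a1. Of the 130 pairs of gene and cluster, 104 held at least 100 UMIs. Among these, 38 pairs (36.5%) were past 1.5-fold higher, where 9.65% of all gene and cluster pairs were, and 2 pairs (1.92%) past 1.5-fold lower, where 6.23% of all were. The counting interval lay above 1 in 71 pairs (68.3%), against 20.1% of all, and below 1 in 3 pairs, against 12.8% of all. By cluster, the genes past 1.5-fold higher were 4 of 9 with 100 UMIs in the ILC2-like cells (7.31% of all genes there), 3 of 9 in NK-like (5.85%), 2 of 8 in T-like (11.6%), 3 of 8 in cluster 4 (7.1%), 3 of 8 in Treg-like (9.85%) and 1 of 5 in γδ T-like cells (8.23%). They were 2 of 10 in macrophage-like (9.39%), 1 of 9 in cDC2-like (6.34%), 3 of 9 in cDC1-like (6.75%), 2 of 4 in mature DC-like cells (8.35%) and 1 of 9 in cluster 8 (5.71%). In the cycling-like cells they were 6 of 9 (12.5%). In the B and plasma-like cells they were 7 of 7, where 42.8% of all genes were past the same fold. Not all of these held within parts. Among cycling-like cells rich in MHC class II transcripts, Ldha was 1.60-fold, but Gapdh 1.46-fold, Pkm 1.45-fold, Tpi1 1.38-fold, Eno1 1.14-fold and Aldoa 0.915-fold. In the cells poor in them, these genes stood between 1.54-fold and 1.95-fold. Eno1 (1.46-fold and 1.21-fold) and Pgam1 (1.47-fold and 0.98-fold) were inside the fold in both the antibody-poor and the antibody-rich cells. The 2 lower pairs were both Hk2, in macrophage-like (8.87% of all genes lower) and cycling-like cells (8.42%). Centred on genes of like length, 14 of the 104 pairs were past 1.5-fold higher and 3 lower, where 5.61% and 6.58% of all pairs were. The members' median ratio lay above the median of all genes in 13 of 13 clusters, and with clusters weighted alike the medians were 0.46 over the 10 genes and 0.07 over 10361 genes (log2).

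**Figure D4:**
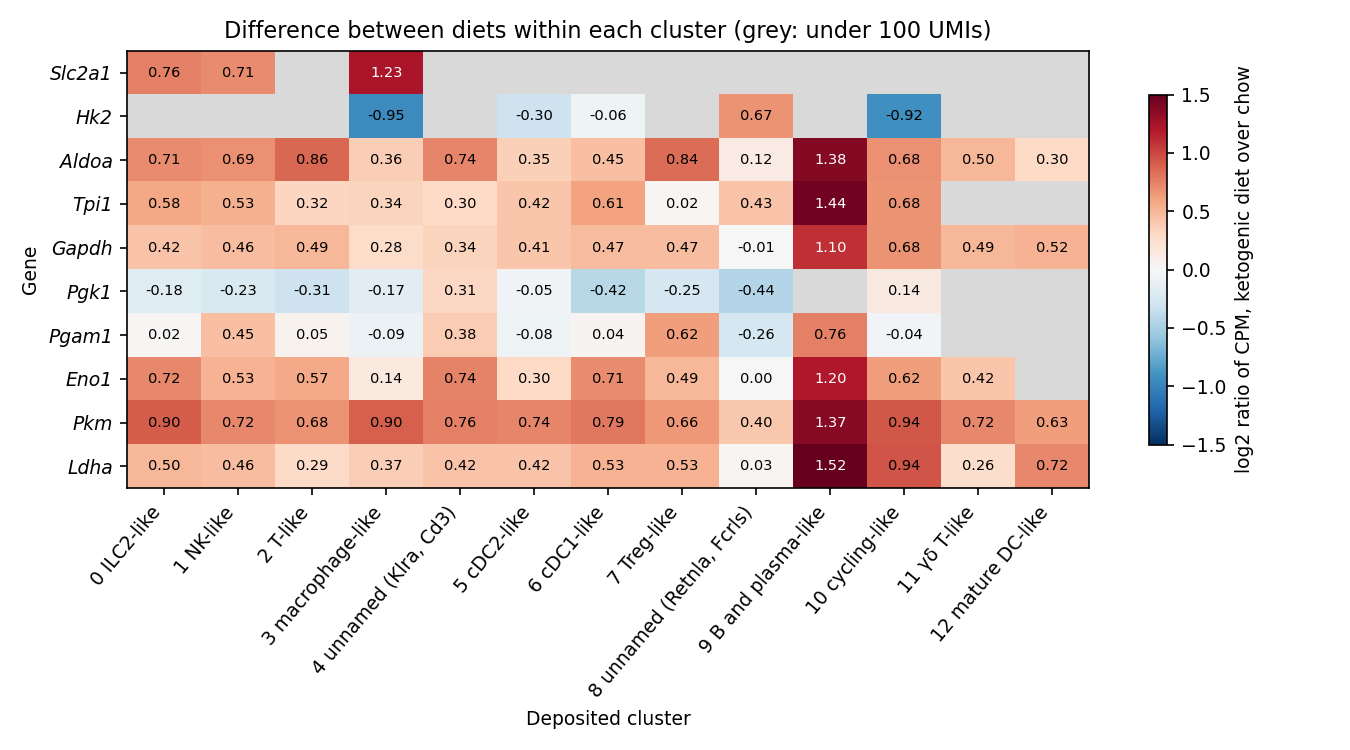
Ratio of CPM between the ketogenic and the chow library (log2) for each of the 10 genes (rows) in each deposited cluster (columns), with red higher and blue lower in the ketogenic library; grey marks pairs under 100 UMIs. Pkm and Aldoa are red in every cluster, Pgk1 is mostly blue, and the Hk2 row holds both signs.

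For glucose entry, Slc2a1 (ENSMUSG00000028645, chromosome 4, 119108711 to 119137983, plus strand) was higher in the ketogenic library wherever it could be read. It gave 14.2 CPM in the chow library and 25.4 CPM in the ketogenic library over all clusters, a log2 ratio of 0.84 ± 0.13 (counting SE). Only 3 clusters reached 100 UMIs, and it was past 1.5-fold in all 3. In the ILC2-like cells it went from 17.7 to 30.0 CPM, 1.70-fold [1.19–2.47], in the NK-like cells it was 1.65-fold [1.13–2.47], and in the macrophage-like cells 2.32-fold [1.45–3.62] from 14.0 to 32.5 CPM. In the cDC2-like and cDC1-like cells, with 45 UMIs or fewer in each, the values were 9.52 and 8.69 CPM and 6.97 and 6.60 CPM, with intervals of the ratio of [0.487–1.72] and [0.485–1.89], and no difference was detectable at this depth.

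Hk2 (ENSMUSG00000000628, chromosome 6, 82725025 to 82774454, minus strand) was the gene whose ratio changed sign most clearly between clusters. In the macrophage-like cells it stood at 44.3 CPM in the chow library (225 UMIs) and 22.4 CPM (20 UMIs) under the ketogenic diet, 0.505-fold [0.303–0.799]. In the cycling-like cells it was 53.7 and 28.2 CPM, 0.526-fold [0.355–0.772]. Within the cycling-like cells neither part reached 100 UMIs of Hk2. Those rich in MHC class II transcripts had 71 and 27 UMIs, at 62.7 and 33.1 CPM (0.528-fold [0.326–0.833]). Those poor in them had 3 and 18 UMIs, at 12.1 and 23.1 CPM (1.90-fold [0.555–10.1]). In cluster 8 it was 83.5 CPM (243 UMIs) and 131 CPM (33 UMIs), 1.57-fold [1.06–2.26]. The γδ T-like cells, at 100.1 and 103 CPM, differed by less than counting error, as did the cDC2-like and cDC1-like cells. Over all clusters it gave 27.6 and 24.5 CPM, a log2 ratio of −0.17 ± 0.10.

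In the middle of the pathway, Aldoa (ENSMUSG00000030695, chromosome 7, 126795234 to 126800751, minus strand), the aldolase that cuts fructose 1,6-bisphosphate, was 290.0 and 452 CPM over all clusters, a log2 ratio of 0.64 ± 0.029. Its ratio was above 1 in all 13 clusters and beyond counting error in 11. ILC2-like cells had 468 and 766 CPM, 1.64-fold [1.53–1.75], and in the T-like cells 228 and 417 CPM, 1.83-fold [1.53–2.19]. Of the lymphoid clusters, 0, 1, 2, 4, 7 and 9 were past 1.5-fold and the γδ T-like cells were not (1.42-fold [1.13–1.79]). Within cluster 9 the antibody-poor part was past it (2.24-fold [1.56–3.32]) and the antibody-rich part was not (1.39-fold [0.963–2.03]). The macrophage-like, cDC2-like and cDC1-like cells stood at 1.29-fold, 1.28-fold and 1.36-fold. Tpi1 (ENSMUSG00000023456, chromosome 6, 124810586 to 124814296, minus strand), which interconverts the trioses, was 69.8 and 96.6 CPM, 0.47 ± 0.059 on the log2 scale, and beyond counting error in 7 of 11 clusters. These include the B and plasma-like cells at 2.79-fold [1.67–4.95], where neither the antibody-poor part (1.91-fold [0.963–4.29]) nor the antibody-rich part (1.74-fold [0.742–4.56]) passed it alone. In the Treg-like cells it was 70.3 and 72.1 CPM, with no difference detectable. Gapdh (ENSMUSG00000057666, chromosome 6, 125161715 to 125166467, minus strand), often used as a reference gene, was 529 and 708 CPM, 0.42 ± 0.021 on the log2 scale, and beyond counting error in 12 of 13 clusters. Cluster 8 was again the exception, with 797 and 790 CPM of Gapdh (0.99-fold [0.853–1.15]).

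The pair of steps after Gapdh behaved differently. Pgk1 (ENSMUSG00000062070, chromosome X, 106187100 to 106203699, plus strand), the phosphoglycerate kinase that makes ATP, was 65.9 and 58.7 CPM, a log2 ratio of −0.17 ± 0.066. It was above 1 beyond counting error in none of 10 clusters and below it in 1, the cDC1-like cells, with 73.8 and 55.1 CPM (0.747-fold [0.606–0.921]). Among ILC2-like cells, where Aldoa and Pkm were higher by more than 1.5-fold, Pgk1 stood at 61.4 and 54.4 CPM (0.886-fold [0.718–1.10]). Pgam1 (ENSMUSG00000011752, chromosome 19, 41911923 to 41918660, plus strand), the mutase of the next step, was 88.2 and 94.99 CPM (0.11 ± 0.053), and beyond counting error in 3 of 11 clusters. These were the NK-like cells, with 76.2 and 105 CPM (1.37-fold [1.13–1.68]), the Treg-like cells, with 50.2 and 78.5 CPM (1.56-fold [1.01–2.52]), and the B and plasma-like cells, where neither the antibody-poor part (1.47-fold [0.824–2.85]) nor the antibody-rich part (0.98-fold [0.528–1.86]) passed it alone. The ILC2-like cells had 51.7 and 52.5 CPM. With all clustered cells pooled without weights, the log2 ratio of Pgam1 turned to −0.30.

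At the end of the pathway the genes were again higher in the ketogenic library. Eno1 (ENSMUSG00000063524, chromosome 4, 150236721 to 150248879, plus strand) was 288 and 402 CPM, a log2 ratio of 0.48 ± 0.029, and beyond counting error in 10 of 12 clusters. In the macrophage-like cells, where it is most abundant, it was 499 and 551 CPM (1.10-fold [0.9997–1.22]), whereas the ILC2-like cells went from 217 to 357 CPM, 1.64-fold [1.49–1.82]. Pkm (ENSMUSG00000032294, chromosome 9, 59656368 to 59679375, plus strand) was past the fold in the most clusters. It was 233 and 402 CPM, 0.79 ± 0.031 on the log2 scale, beyond counting error in 13 of 13 clusters and past 1.5-fold in 12. Pkm in the ILC2-like cells stood at 223 and 418 CPM (1.87-fold [1.70–2.07]), in the macrophage-like cells at 345 and 642 CPM (1.86-fold [1.69–2.05]) and in the γδ T-like cells at 369 and 610 CPM (1.65-fold [1.28–2.16]). In cluster 8 Pkm had 355 and 468 CPM (1.32-fold [1.08–1.60]) and was, with Hk2, 1 of the 2 genes there above 1 beyond counting error. The counts are per gene, so the muscle-type and embryonic splice forms of Pkm were not told apart.

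Ldha (ENSMUSG00000063229, chromosome 7, 46841475 to 46855627, plus strand) was 487 and 669 CPM, a log2 ratio of 0.46 ± 0.023, and beyond counting error in 11 of 13 clusters. It was 1.41-fold [1.34–1.49] in the ILC2-like cells, in the cDC1-like cells 1.44-fold [1.33–1.56] from 380 to 548 CPM, and in the cycling-like cells 1.92-fold [1.72–2.14] from 361 to 693 CPM. Both parts of the cycling-like cluster had lower ratios of Ldha than the whole, 1.59-fold [1.32–1.93] in those poor in MHC class II transcripts and 1.60-fold [1.39–1.85] in those rich in them. In the γδ T-like cells it was 637 and 767 CPM (1.20-fold [0.985–1.48]), and in cluster 8 405 and 413 CPM (1.02-fold [0.825–1.246]). With clusters weighted alike, Slc2a1, Aldoa and Pkm were past 1.5-fold higher, 3 of 10 genes where 6.11% of all genes were, and none of the 10 was past 1.5-fold lower, where 5.05% of all were. With all clustered cells pooled without weights, Hk2 stood at −0.78 on the log2 scale, past 1.5-fold lower, Pkm at 0.53, inside that fold, and Ldha at 0.67, past 1.5-fold higher.

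Copies of some members draw on near-identical sequence. Eno1b, a processed copy of Eno1 listed as a gene of its own, had 771 chow UMIs and 634 ketogenic UMIs, beside 6774 and 9399 of Eno1. Pgk1-rs7 had 59 and 54, beside 1560 and 1491 of Pgk1. With all clustered cells pooled, the log2 ratio was −0.56 for Eno1b, opposite in sign to that of Eno1, and −0.40 for Pgk1-rs7. With copies of members added to the sum, the log2 ratio over all clusters was 0.48. Gapdh has 120 annotated processed pseudogenes with at least 90% identity over 200 bases, and Slc2a1 and Hk2 have none. How far reads shared with such copies alter the level of Gapdh was not tested.

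The rest of the pathway followed in part. Of 15 other carriers and enzymes of glycolysis, 13 held 100 UMIs, 4 were past 1.5-fold higher and none lower, where 6.11% and 5.05% of all genes were, with a median log2 ratio of 0.35 beside 0.07 over all genes. Gpi1, which isomerises glucose 6-phosphate between Hk2 and the phosphofructokinases, was 140 and 215 CPM (0.62 ± 0.040) and above 1 in 12 of 12 clusters. Pfkp, a subunit of phosphofructokinase, was 60.8 and 68.6 CPM (0.17 ± 0.065), the constitutive hexokinase Hk1 23.6 and 28.0 CPM (0.25 ± 0.11), and Slc2a3, a high-affinity glucose carrier, 27.4 and 27.6 CPM (0.01 ± 0.10).

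Of 14 genes of lactate and pyruvate handling, 13 held 100 UMIs, 2 were past 1.5-fold higher and 1 lower, against the same 6.11% and 5.05% of all genes, and the median was 0.27. Mpc1, a subunit of the mitochondrial pyruvate carrier, was 133 and 160 CPM (0.27 ± 0.044), its partner Mpc2 126 and 129 CPM (0.04 ± 0.046), and Pdha1, a subunit of pyruvate dehydrogenase, 49.7 and 65.5 CPM (0.40 ± 0.073). In the pentose phosphate branch 7 of 7 genes held 100 UMIs and none passed 1.5-fold in either direction, with a median of 0.20; Taldo1, its transaldolase, was 231 and 305 CPM (0.40 ± 0.032). Of 8 regulators of the flux 5 held 100 UMIs and none passed 1.5-fold, with a median of 0.24, and of 6 genes of gluconeogenesis 2 held 100 UMIs and none passed the fold. Of 16 genes under HIF-1 control outside glycolysis, with Hif1a itself, 15 held 100 UMIs, none was past 1.5-fold higher and 1 lower (6.11% and 5.05% of all genes), and their median of −0.03 lay under that of all genes. Hif1a was 78.1 CPM in the chow library and 60.2 CPM in the ketogenic library (−0.38 ± 0.064), and below 1 in 10 of 10 clusters, while Higd1a was 170.0 and 171 CPM and Bnip3l 109 and 126 CPM. These lists were read in the same 2 libraries as the members.

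**Figure D5:**
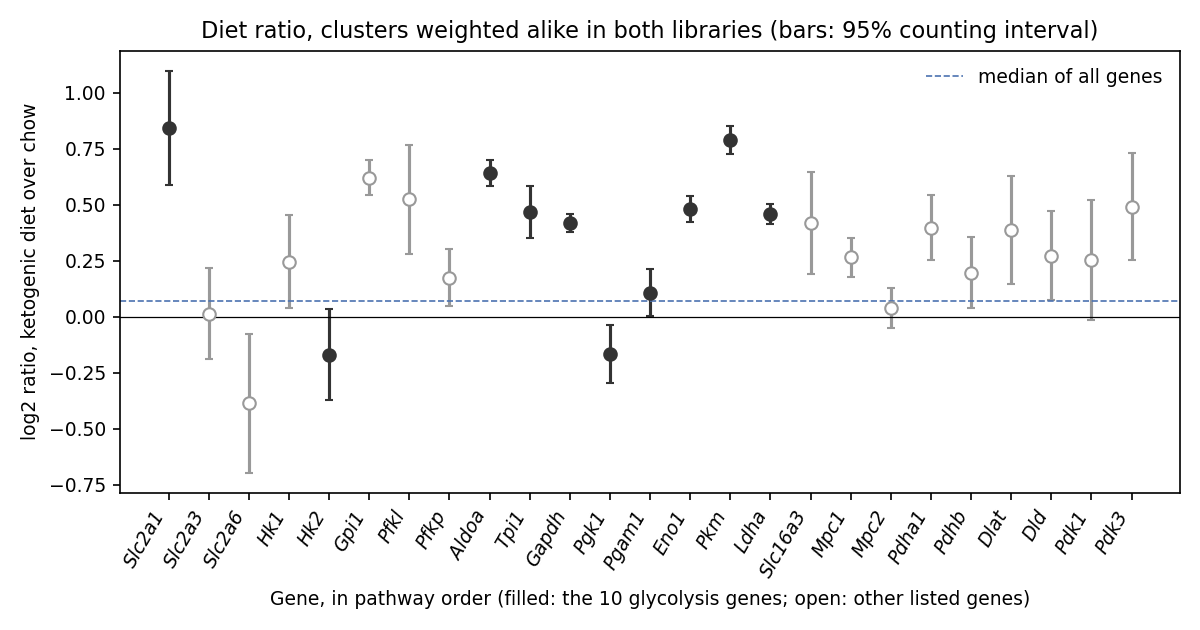
log2 ratio, ketogenic diet over chow, with clusters weighted alike in both libraries (y axis), for the 10 glycolysis genes (filled) and 15 other genes of glycolysis and of lactate and pyruvate handling with at least 500 UMIs (open), in pathway order; bars are 95% counting intervals. Aldoa, Tpi1, Gapdh, Eno1, Pkm and Ldha lie between 0.42 and 0.79, above the dashed median of all genes at 0.07, with Hk2 and Pgk1 below 0 and Pgam1 near that median.

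Other values moved with the library as well. In the lymphoid clusters 0, 1, 2, 4, 7, 9 and 11, the summed markers of macrophages, 10 genes, stood between 558 and 1427 CPM in the chow library and between 108 and 281 CPM in the ketogenic library, lower in 7 of 7, and those of monocytes were lower in 7 of 7 as well. The summed CD4 T cell markers were higher in the ketogenic library in 13 of 13 clusters. Markers of neutrophils were lower in 13 of 13, between 13.5 and 301 CPM in the chow library and 2.89 and 58.2 CPM in the ketogenic library. Mitochondrial genes were lower in 12 of 13 clusters, as was their sum with Malat1, a nuclear RNA, which served as a sign of RNA quality (32160 to 56395 CPM in the chow library and 24027 to 52464 CPM in the ketogenic library), and dissociation and immediate early genes higher in 9. Red cell genes in the ILC2-like cells were 121 and 602 CPM, while adipocyte and stromal markers were at most 5.27 CPM in any cluster. The part of these in the glycolysis ratios was not tested. With free RNA removed from each cluster, 10% of its UMIs in proportion to the library's profile, the summed ratio stayed above 1 beyond counting error in 12 clusters, and it did so in 12 or 13 under each of the other 11 alternatives for which it was counted.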

How the data were processed

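Libraries of CD45+ adipose tissue-resident cells were made with 10x Genomics protocols, per the labels. The deposited values are whole-number UMI counts without normalisation, to judge by the file headers and the values. Cell Ranger, Seurat and the build mm10 are named in the submitters' processing notes, without versions. The deposited cluster table (resolution 0.5, per the file headers) covers 10017 of 10159 barcodes, and the 142 others entered no cluster. No further cell was removed and no doublet caller was run.

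The 10 genes, the pathway lists and the markers were chosen with earlier results of these data known. UMIs were summed per cluster and library and divided by all UMIs of the same cells. Ratios are of CPM; log2 ratios of single genes have 0.5 added to each count. A gene counted as past the fold at 1.5-fold with at least 100 UMIs there, both libraries together. Over all clusters, CPM values were averaged with the mean of the cluster's 2 shares of cells as its weight, with a counting SE by the delta method. In a list, the 4 or fewer genes with the most UMIs were named; the genes most like the members were the 5 with the highest r. A marker counted as raised at 2-fold over all other clusters, with 20 CPM added, and a class name needed 3 raised markers, at least 1 of them among the cluster's 10 leading genes; joint T-like and B and plasma-like names were given where both lists were raised. Cluster 4 met the joint T-like rule and cluster 8 the rule for monocytes, but both were left unnamed after their leading genes were seen, which in cluster 4 were Ly49 receptor genes together with 3 CD3 genes. Positions come from GENCODE M21 (98.8% of gene IDs found) and promoters from RefSeq. Pseudogenes were aligned with minimap2 2.31. Python 3.11.15, numpy 2.4.6, scipy 1.17.1 and pandas 2.3.3 were used. The log2 ratios of single genes, their intervals and the fold calls were tested on simulated counts for the ILC2-like cluster only. No variation between libraries was simulated, and the other steps were not tested in this way.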

Additional observations from a re-analysis of the deposited data

Results flagged for a closer look

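Hk2 was singled out because its diet ratio took opposite signs in 2 clusters: higher in the ketogenic library in cluster 8 and lower in the macrophage-like cluster 3. The interval of the ratio held 1 in the cDC2-like cells, with 139 and 141 UMIs of Hk2, and in the cDC1-like cells, with 87 and 119 UMIs. The log2 ratios of clusters 8 and 3 differed by 1.62. With 1 library a diet this difference was not tested, and the ketogenic sums rest on 33 UMIs from 47 cells and 20 UMIs from 145 cells.

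The barcodes outside the cluster table, which entered the alternative with all barcodes and no other comparison, also carried glycolysis transcripts. In the ketogenic library 55 such barcodes summed to 2244 CPM [2028–2477], and in the chow library 87 summed to 1696 CPM [1529–1876], so the order of the libraries was that of the clustered cells.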

How the results depend on the processing

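The summed ratio stayed above 0 (log2) in all 173 values over clusters and alternatives, and the members' median in all 130, of which 37 and 7 moved beyond counting error or spread. Over all clusters the log2 ratio of 0.49 was 0.45 with cells of at least 3000 UMIs, 0.51 without Gapdh, 0.42 centred on all genes, 0.37 pooled without weights and 0.37 with all barcodes. Alternatives chosen after seeing the data gave 0.38 within bins of GC content, 0.30 of length and 0.45 of UMIs. Pairs past the fold numbered 71 higher and 4 lower at the milder fold tried (25.2% and 15.8% of all pairs) and 7 and 0 at 2-fold (2.08% and 1.6%); within GC bins 24 (6.24%) and within length bins 14 (5.61%) were higher. With a minimum of 200 UMIs the 2 lower pairs became 1, that of Hk2 in the macrophage-like cells. They also became 1 without cells above 15000 UMIs, and 5 with no minimum. The highest cluster over the lowest was 3.38 without Gapdh and 2.84 without ribosomal and mitochondrial genes in the total. Pgam1 turned from 0.11 to −0.30 pooled without weights and −0.31 with all barcodes. Pooling also put Hk2 at −0.78, past 1.5-fold lower, took Pkm to 0.53, inside that fold, and Ldha to 0.67, past it; Tpi1 went from 0.47 to 0.16, Eno1 from 0.48 to 0.20 and Pgk1 from −0.17 to −0.34. Pooling the clustered cells uses the same counts and differs only in the weight each cluster takes in each library. The macrophage-like cluster held 19.3% of clustered cells in the chow library and 2.61% in the ketogenic library. Cluster 8 held 8.12% and 0.845%, and the T-like cluster 5.29% and 14.8%. What each cluster added to these changes was not tested. No paired analysis was possible because each diet has 1 library. Depth limits Slc2a1 and Hk2, which held 100 UMIs in 3 and 5 clusters.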
